A study of Homo sapiens with 12 samples.

Results

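The 6 scramble control libraries of a UHRF1 silencing study were compared to describe the starting states of its 2 cell lines, 3 libraries of Kyse410 against 3 of TE10. They were chosen by their labels alone, as the libraries titled Kyse410_scramble and TE10_scramble, out of 12 libraries in 4 groups. Both are established human esophageal squamous cell carcinoma lines. All 6 libraries came from cells stably infected with a scramble control, and polyadenylated RNA was sequenced from them. The other 6 libraries are the same lines carrying a UHRF1 shRNA. They are used here to ask whether a line difference recurred, and at what size, in libraries outside the scramble comparison. Their UHRF1 levels are given as well. The shRNA is itself a treatment, so these libraries do not repeat the scramble condition. The labels do not say whether an infected line was a clone or a pool, nor whether replicate libraries were grown as separate cultures. The p-values below therefore measure only the spread between libraries, which may be technical. Culture, harvest and library handling, if they differed between the lines, cannot be told apart from the lines themselves.

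Squamous carcinomas of the esophagus arise from a layered epithelium. Its basal cells sit on a laminin matrix, express the transcription factor TP63 and the keratin pair KRT5 and KRT14, and divide. The cells above them switch to other keratins, such as KRT13 in the esophagus, as they differentiate. KRT8 and KRT18 are the keratin pair of simple epithelia and are also made by many carcinoma cells in culture. Lines of this tumor type differ in how much of this programme they keep, and in their signalling, stress and metabolic states.

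Between 8053970 and 12005229 reads per library fell on genes. Of 15381 genes with enough reads to be tested, 11785 (76.6%) differed between the lines at an adjusted p under 0.05 in edgeR's quasi-likelihood test, with 5896 (38.3%) higher in Kyse410 and 5889 (38.3%) lower. With replicates this alike, most of these differences were small, and their median size was 0.79 on the log2 scale. The shares of 76.6% called and 38.3% each way are the background for every count of list members below. A difference of at least 2-fold was found for 4277 genes (27.8%), of which 2427 were higher in Kyse410 and 1850 lower. Large differences were more often upward in Kyse410. At 8-fold or more there were 244 genes higher and 78 lower, and at 64-fold or more 12 and 0 by edgeR. The median difference of all tested genes was 0.002. The scaling of the libraries centres most genes near 0, so this median and the even split of calls largely follow from it. With scaling by library totals only, the median was 0.088 and 54.8% of calls were higher in Kyse410. Log2 levels had a Pearson correlation of 0.9935 to 0.9951 between libraries of a line and 0.9073 to 0.9087 between libraries of different lines. The first principal component held 89.3% of the variance and separated the lines, and the second held 3.4% and set TE10 replicate 1 apart from the other two TE10 libraries. Mitochondrial transcripts took 5.95 to 6.05% of gene reads in TE10 and 2.3 to 2.43% in Kyse410, and reads that HTSeq assigned to no feature took 44.42 to 44.53% and 42.88 to 43.4%. A fit without mitochondrial genes called 11751 genes, and 99.7% of the calls tested in both fits kept their direction. Beyond that, whether these shares bear on the gene differences below was not tested.

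**Figure D1:**
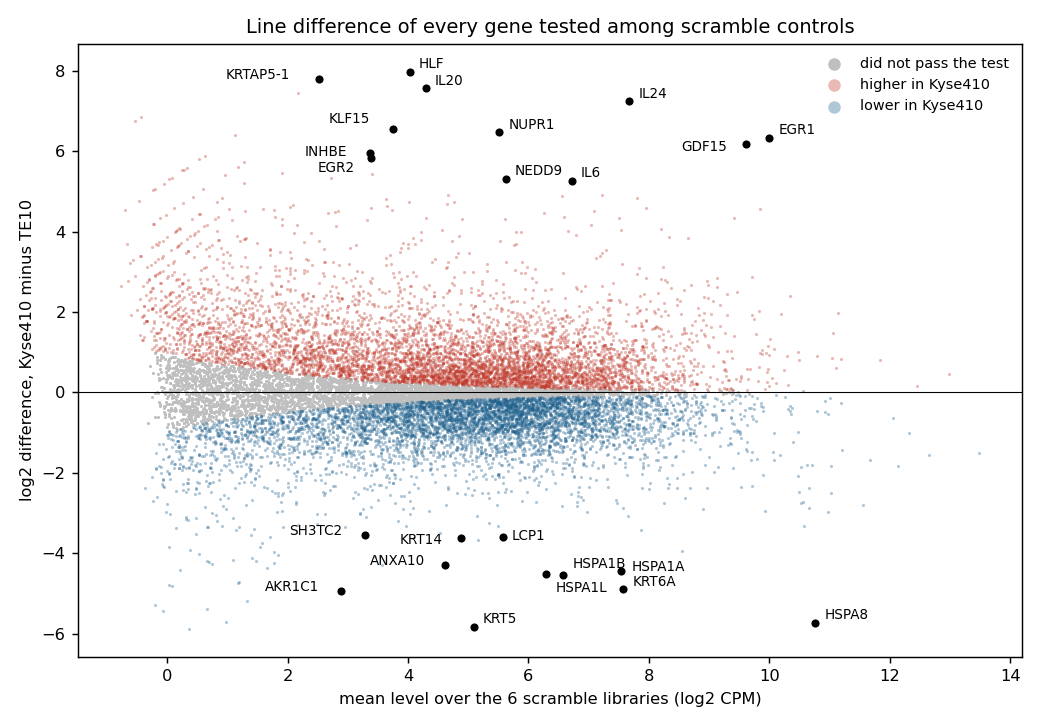
Mean level over the 6 scramble libraries (x axis, log2 CPM) against the log2 difference, Kyse410 minus TE10 (y axis), for the 15381 genes tested, colored by the edgeR call; black points are the largest differences, 12 above and 11 below 0, among protein-coding genes with at least 5 CPM on average. The named genes higher in Kyse410 reach 7.97 on the log2 scale, and the lowest of the named genes below 0 lies at -5.83.

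The labelled cell type was checked against defining markers. Of 12 squamous markers, 10 had at least 1 CPM, the standard depth-scaled read count, in each line, TP63, TRIM29 and SFN among them, while SOX2 and PKP1 did not. Summed over the list, their level was 1690 to 1740 CPM in the TE10 libraries and 818 to 826 in Kyse410. Of 12 columnar or glandular markers, 7 passed 1 CPM in TE10 and 6 in Kyse410, with sums of 45 to 56.9 and 59.1 to 61.5 CPM, and the intestinal factors CDX1 and CDX2 and the endodermal factor FOXA3 had no read. No blood marker of 10 reached 1 CPM in either line. A longer list of 18 blood cell genes summed to 70.5 to 81.9 CPM in TE10 and 56.1 to 58.2 in Kyse410, most of it LAPTM5, a lysosomal membrane protein, at 66.8 ± 4.2 and 48.3 ± 1.45 CPM. Of 9 fibroblast markers COL1A1 and PDGFRB passed, with COL3A1, DCN, LUM and FAP at 0, and of the endothelial markers CDH5, the endothelial cadherin, passed in both lines.

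TP63 itself was at 108, 96.5 and 94.7 CPM in the 3 TE10 libraries and at 95.2, 97.3 and 99.9 in Kyse410. The libraries of the lines overlapped, and the difference did not pass the test (log2 -0.03 ± 0.0506 SE, adjusted p = 0.561 in edgeR). KRT5 and KRT14, the keratin pair that basal cells make beside it, differed. KRT5 was at 66.1, 66.7 and 68.1 CPM in TE10 and at 1.3, 0.509 and 1.61 in Kyse410, a log2 difference of -5.83 ± 0.139 (edgeR adjusted p = 1.24e-61). KRT14, its partner, was at 53.3, 55.5 and 55.6 CPM in TE10 and at 5.11, 3.87 and 4.18 in Kyse410, which was 12.3-fold lower. KRT6A, a keratin of stressed and proliferating squamous cells, was at 377, 358 and 373 CPM in TE10 and 12.8, 13.3 and 11 in Kyse410, and KRT16, its usual partner, was 4.03-fold lower in Kyse410. All 3 Kyse410 libraries lay below all 3 TE10 libraries for these keratins. Libraries of the lines did not overlap for 77.6% of all tested genes, so that separation was the usual case here and for the genes below. KRT6A has near-identical relatives whose reads the counting could have divided.

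The suprabasal keratin KRT13 went the other way. It was at 177, 183 and 187 CPM in TE10 and at 895, 871 and 890 in Kyse410 (log2 2.28 ± 0.0315, edgeR adjusted p = 8.81e-83). KRT80, found in differentiating epithelia, was at 285, 271 and 284 CPM in TE10 and 877, 892 and 885 in Kyse410, with no overlap. Expressed per kilobase of exon, so that genes can be set side by side, KRT81 was highest of 18 keratins in Kyse410 (1130 ± 29.8 CPM per kb, mean ± SD, n = 3), followed by KRT7 (651 ± 19.4), KRT13 (304 ± 4.28) and KRT80 (203 ± 1.67). KRT81 is a hair keratin. In TE10 the order was KRT7 (430 ± 4.74), KRT8 (333 ± 2.75), KRT18 (269 ± 4.87), KRT81 (216 ± 21.4) and KRT6A (126 ± 3.4). Neighbours in these orders were separated by more than their SD. Of the other keratins on the differentiation list described below, KRT10 was higher in Kyse410, at 20.3 ± 0.598 against 10.5 ± 0.508 CPM per kb. KRT4 was lower in Kyse410, at 0.0764 ± 0.0608 against 0.671 ± 0.0566, and was low in both lines. KRT6A and KRT16, also on that list, were lower as given above. KRT81 has close copies, and KRT86, 1 of them, was also higher in Kyse410, at 86.2 ± 10.8 against 6.33 ± 0.39 CPM. The simple epithelial pair was lower in Kyse410, KRT8 at 566, 531 and 518 against 2310, 2300 and 2270 CPM, and KRT18 1.74-fold.

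Of 21 tested genes of basal squamous identity, 9 were higher in Kyse410 and 12 lower (all genes: 38.3% each way), with a median of -0.42. The lower ones included KRT5, KRT14 and KRT15, whereas the keratin KRT17 was higher in Kyse410, at 25.9 ± 1.05 against 21.5 ± 0.735 CPM per kb. S100A2, a calcium-binding protein of basal cells, was lower, at 41.2 ± 1.48 against 176 ± 10.9 CPM. ITGA6, an integrin of the basal attachment, was 2.02-fold lower. Among those higher were NGFR, the neurotrophin receptor of basal progenitors (6.16, 7.44 and 5.05 CPM in TE10, 184, 177 and 186 in Kyse410), the laminin chain LAMB3 (3.79-fold) and EGFR. For NGFR, 27.1% of the exon bases overlap a gene on the other strand. Members of the same basal list thus differed in opposite directions, each without overlap of the libraries for the genes named.

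Among 17 tested differentiation genes 9 were higher and 7 lower, and their median (0.77) and mean (-0.04) differed in sign. PI3, the skin elastase inhibitor elafin, was at 0.85 ± 0.315 CPM in Kyse410 and 8.18 ± 1.26 in TE10. ECM1 was 2.4-fold lower in Kyse410, and LCN2, a secreted siderophore-binding protein, 4.45-fold higher. Of 38 differentiation genes only these 17 had enough reads to be tested. Of 19 tested squamous transcription factors 12 were higher in Kyse410 and 4 lower, with a median of 0.67. GRHL1, a grainyhead factor of epithelial differentiation, was at 2.57, 2.72 and 2.1 CPM in TE10 and 30.8, 29.6 and 28 in Kyse410. TFAP2C was 3.64-fold, ELF3 3.52-fold and KLF4 3.08-fold higher in Kyse410.

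Genes that respond within minutes to growth factor signals, such as EGR1, FOS and DUSP1, are transcribed by factors already present in the cell. Many of them feed back on the ERK kinase cascade, since DUSP1 is a phosphatase of MAP kinases and the SPRY and SPRED proteins restrain receptor signalling. The following sequences are the 250 bases before the start of EGR1 and of DUSP1 (RefSeq, GRCh38.p14). They are shown because both genes are among the 4 of largest difference on the list and their promoters hold a match to a known response motif. EGR1 lies on the plus strand, chr5:138465229-138465478, with matches to the CArG box in capitals, and DUSP1 on the minus strand, chr5:172771196-172771445, with a match to TGACGTCA, the cyclic AMP response element, in capitals.
EGR1: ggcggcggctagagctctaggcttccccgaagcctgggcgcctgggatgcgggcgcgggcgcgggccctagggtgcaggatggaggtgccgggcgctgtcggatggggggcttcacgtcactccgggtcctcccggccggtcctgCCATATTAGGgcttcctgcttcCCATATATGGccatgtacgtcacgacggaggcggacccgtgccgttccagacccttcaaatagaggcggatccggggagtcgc
DUSP1: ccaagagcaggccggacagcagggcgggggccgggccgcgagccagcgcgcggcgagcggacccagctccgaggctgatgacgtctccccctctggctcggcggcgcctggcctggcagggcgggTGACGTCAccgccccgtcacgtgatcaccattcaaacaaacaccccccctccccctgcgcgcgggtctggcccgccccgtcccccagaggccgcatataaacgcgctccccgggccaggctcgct
On either strand, TGACGTCA was found in 3 of 23 promoters of the list that had an entry (13%) and in 1.77% of 27305 promoters of the same length, and the CArG box in 1 of 23 and 1.14%.

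These early response genes stood higher in Kyse410. EGR1, a zinc finger transcription factor, was at 26.6, 24.6 and 24.5 CPM in TE10 and at 2010, 1990 and 2060 in Kyse410, a log2 difference of 6.33 ± 0.0412 (edgeR adjusted p = 2.20e-112). DUSP1 was at 73.7, 73.2 and 75.5 CPM in TE10 and at 1770, 1740 and 1770 in Kyse410 (4.57 ± 0.0346, adjusted p = 2.24e-106 in edgeR). FOS, a subunit of the AP-1 factor, was at 11.2, 9.81 and 13.5 CPM against 264, 257 and 265. The lowest Kyse410 library was above the highest TE10 library for all of these, and no overlap was part of the rule that named EGR1 among the largest differences. JUN, the partner of FOS, was 20.3-fold and the nuclear receptor NR4A1 24.2-fold higher, and EGR2, at 20.6 ± 1.03 CPM in Kyse410, rested on 9 reads in all in TE10. Of 31 genes in this list all were tested, and 26 were higher and 2 lower, with a median of 2.31. The sum of the list was 2510 to 2540 CPM in TE10 and 14700 to 15100 in Kyse410. The 2 lower genes were ETV5 and CCND1, cyclin D1, at 217 ± 5.14 against 261 ± 3.09 CPM. DUSP6, ETV1 and ETV4, genes often read as marks of ERK output, did not pass the test.

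**Figure D2:**
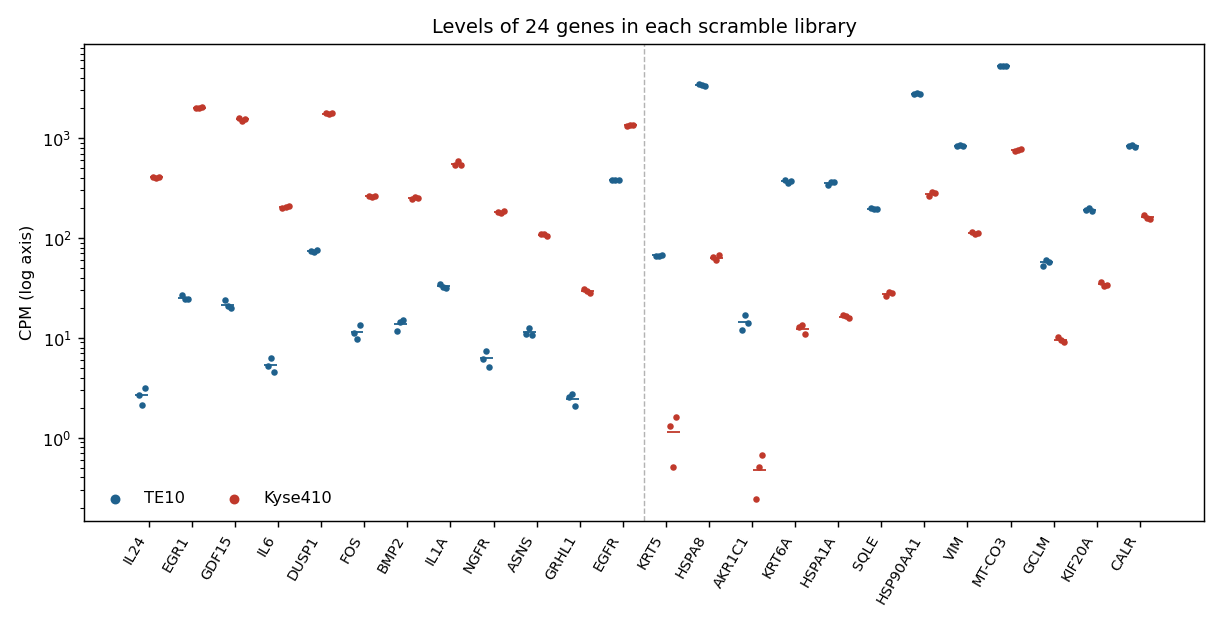
CPM (log axis) of 24 genes in each scramble library, TE10 in blue and Kyse410 in red, with lines at the means of the 3 libraries; the left 12 were higher in Kyse410 and the right 12 lower. No gene shown has overlapping libraries, as was the case for 77.6% of all tested genes, and EGR1 lies at 2020 ± 39 CPM in Kyse410 against 25.2 ± 1.17 in TE10.

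Of the receptors and ligands upstream of such signals, 70.8% of 24 receptor tyrosine kinases and 76.2% of 21 ligands were called, no more than the 76.6% of all genes. EGFR, the receptor of epidermal growth factor, was at 383, 380 and 380 CPM in TE10 and at 1320, 1340 and 1360 in Kyse410 (log2 1.82 ± 0.0279, edgeR adjusted p = 1.11e-78). EPHA2, an ephrin receptor, was at 485, 469 and 487 CPM against 1860, 1820 and 1910. ERBB2, a relative of EGFR, did not pass the test (log2 0.04 ± 0.0544), and MET was only 1.18-fold higher. Of 24 receptor tyrosine kinases tested 12 were higher in Kyse410 and 5 lower, with a median of 0.28. FGFR1, a fibroblast growth factor receptor, was 1.91-fold lower. Among 21 ligands 10 were higher and 6 lower (median 0.33), with HBEGF, a ligand of EGFR, 4.8-fold, PDGFB 4.47-fold and VEGFA 4.39-fold higher. FGFBP1, a secreted carrier of fibroblast growth factors, was lower in Kyse410 at 11.2 ± 2 against 63.6 ± 2.57 CPM.

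Cytokines and targets of NF-kB, a transcription factor of inflammation, were higher in Kyse410 in 25 of 29 tested members and lower in 0, with a median of 2.04, where an unadjusted p in edgeR and the test of DESeq2 each also called 25 higher and 0 lower. Its sum was 920 to 942 CPM in TE10 and 4050 to 4070 in Kyse410. IL6, a cytokine that signals through STAT3, was at 5.26, 6.26 and 4.52 CPM in TE10 and at 201, 203 and 210 in Kyse410 (log2 5.26 ± 0.078, edgeR adjusted p = 4.03e-80), and 20.7% of its exon bases overlap a gene on the other strand. IL1A, which cells release when damaged, was at 34.7, 32.3 and 31.9 CPM against 539, 586 and 533. The neutrophil attractants CXCL2 and CXCL8 were 19.7-fold and 13.8-fold higher, the apoptosis inhibitor BIRC3 11.6-fold. CCL28, CXCL11, IL33 and CSF2 did not pass the test.

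IL20 and IL24 are related cytokines that act on keratinocytes through shared receptors. IL24 was at 2.7, 2.13 and 3.15 CPM in TE10 and at 405, 402 and 412 in Kyse410 (log2 7.24 ± 0.0739, edgeR adjusted p = 1.29e-94). IL20 rested on 5 reads in all in TE10 and was at 39, 35.9 and 42.7 CPM in Kyse410. IL20RB, a receptor chain for both, was at 8.34, 6.62 and 7.47 against 38.8, 45.8 and 47.2 CPM. Of 6 tested members of the IL10 and IL20 family, a list written after the values were seen, 4 were higher. IL22RA1, another receptor chain of the family, was 1.56-fold lower, and IL20RA, the partner of IL20RB, did not pass the test.

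Interferon-stimulated genes showed no common direction, with 15 of 40 higher, 18 lower and a median of -0.24. RSAD2, which encodes the antiviral protein viperin, was 6.96-fold higher in Kyse410 and IRF7 3.49-fold, while IFI16, a DNA sensor, was 3.07-fold and IFI44 2.97-fold lower. Of 31 tested antigen presentation and checkpoint genes 16 were higher and 13 lower (median 0.23). HLA-B, a class I molecule with near-identical relatives, was at 128 ± 2.15 against 42.5 ± 2.57 CPM. ULBP1, a ligand that natural killer cells see through NKG2D, was at 1.28, 1.54 and 0.736 CPM in TE10 and 28.9, 32.4 and 32.3 in Kyse410. CALR, a chaperone of the class I molecules in the endoplasmic reticulum, was 5.21-fold lower. Complement and coagulation genes were higher in 14 of 22 and lower in 4, with 81.8% called against 76.6% of all genes. C3 was at 193 ± 6.01 against 64.8 ± 0.624 CPM, and CD59, which blocks the end of the complement cascade, was 2.05-fold lower.

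The study's title names the Akt cascade and the epithelial to mesenchymal transition. Akt kinases pass signals from phosphatidylinositol 3-kinase to growth and survival. AKT1 was at 161, 165 and 158 CPM in TE10 and at 102, 105 and 103 in Kyse410 (log2 -0.64 ± 0.0434, edgeR adjusted p = 1.41e-25). The libraries of the lines did not overlap. AKT2 did not pass the test (log2 -0.06 ± 0.0427, adjusted p = 0.176 in edgeR). PIK3CA, the catalytic subunit, did not pass (log2 0.11 ± 0.0783), and the regulatory subunit PIK3R1 was 2.82-fold lower. SGK1, a kinase related to Akt, was at 131, 122 and 134 CPM in TE10 and 574, 578 and 582 in Kyse410. IRS2, an adaptor of the insulin receptor, was 3.47-fold and the forkhead factor FOXO4 3.49-fold higher. Of 29 pathway components tested 12 were higher, 8 lower and 9 not called, with a median of 0.08. The share called, 69%, was below the 76.6% of all genes.

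Epithelial junction genes were higher in Kyse410 in 21 of 29 and lower in 5, with a median of 0.73. CDH1, the epithelial cadherin, was at 51, 53.3 and 49.3 CPM in TE10 and at 113, 112 and 113 in Kyse410 (log2 1.14 ± 0.0555, edgeR adjusted p = 9.53e-36). TJP3, a scaffold of tight junctions, was at 3.34, 4.49 and 3.15 against 58.4, 54.2 and 48.8 CPM, and the claudin CLDN7 was 5.62-fold and OCLN 3.34-fold higher. None of these overlapped. CTNNA1, alpha-catenin, was 1.78-fold lower in Kyse410. Desmosome genes showed no common direction, with 5 of 12 higher and 6 lower.

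Mesenchymal genes showed no common direction either: 8 of 24 were higher in Kyse410 and 11 lower, and the median (-0.12) and mean (0.01) differed in sign. VIM, the intermediate filament vimentin, was at 829, 845 and 843 CPM in TE10 and 114, 109 and 111 in Kyse410 (log2 -2.91 ± 0.0331, edgeR adjusted p = 2.02e-90), and 24.4% of its exon bases overlap VIM-AS1. The matrix protein TNC was 6-fold lower, moesin (MSN) 3.67-fold, the neural cadherin CDH2 1.83-fold and the repressor ZEB1 1.57-fold. SNAI2, another repressor of CDH1, was at 56, 60.7 and 57.7 CPM in TE10 and at 170, 180 and 174 in Kyse410, and COL1A1 was 2.69-fold higher. ZEB1 and SNAI2, both counted as drivers of the transition, therefore differed in opposite directions.

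A further list joins actin cytoskeleton genes with targets of the mechanically regulated coactivator YAP or of the factor SRF. Of its 27 tested members 16 were higher in Kyse410 and 9 lower, with a median of 0.83. CCN2, a secreted matrix-associated factor, was at 7.06, 8.74 and 7.89 CPM in TE10 and 106, 99.4 and 104 in Kyse410. CCN1 was 5.49-fold and ANKRD1 7.9-fold higher, whereas the actin-binding genes CALD1 and ACTN1 were 2.52-fold and 2.02-fold lower. Among 32 matrix proteases and plasminogen system genes 14 were higher and 13 lower. MMP1, an interstitial collagenase, was at 78.7, 84.1 and 81.7 CPM in TE10 and 7.22, 9.27 and 8.26 in Kyse410, with no overlap. Laminins and integrins had 11 of 20 higher and 4 lower, and collagens 12 of 17 higher and 3 lower, with medians of 0.23 and 0.3. Their shares called were 75% and 88.2%, against 76.6% of all genes.

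In the TGF-beta and BMP pathway 24 of 35 members were higher in Kyse410 and 5 lower (median 0.64), against 38.3% of all genes each way. BMP2, a secreted ligand, was at 11.8, 14.3 and 15.2 CPM in TE10 and 244, 255 and 252 in Kyse410 (log2 4.17 ± 0.0615, edgeR adjusted p = 2.81e-80). INHBA, the activin A subunit, was 3.63-fold higher. GDF15, a distant member of the family released by stressed cells, was at 23.9, 21 and 19.7 CPM against 1580, 1490 and 1570. ID2, a target of BMP signals, was 2.67-fold lower. Wnt and Notch members were divided, with 13 of 29 higher and 11 lower, and 9 of 23 higher and 10 lower. Their shares called were 82.8% and 82.6%, against 76.6% of all genes. NKD2, an inhibitor of Wnt signalling, was 5.06-fold and HES4, a Notch-responsive repressor, 6.26-fold higher in Kyse410.

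Heat shock proteins fold other proteins, and the factor HSF1 raises their transcription under heat and other stress. HSPA8 is the HSC70 chaperone that cells make without stress. Its promoter is shown because this gene is among the 11 named for the largest differences below 0 and the window holds matches to GAANNTTCNNGAA, a form of the heat shock element (RefSeq, GRCh38.p14, chr11:123062137-123062386, minus strand, matches on either strand in capitals).
HSPA8: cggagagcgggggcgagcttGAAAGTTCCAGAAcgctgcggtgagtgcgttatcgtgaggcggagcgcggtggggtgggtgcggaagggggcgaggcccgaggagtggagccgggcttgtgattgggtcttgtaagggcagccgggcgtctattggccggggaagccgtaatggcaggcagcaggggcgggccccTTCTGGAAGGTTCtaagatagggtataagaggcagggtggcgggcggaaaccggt
HSPA8 was at 3450, 3400 and 3360 CPM in TE10 and at 63.9, 60.2 and 66.9 in Kyse410, a log2 difference of -5.74 ± 0.0345 (edgeR adjusted p = 2.23e-115). HSP90AA1, the inducible form of the HSP90 chaperone, was at 2770, 2820 and 2770 CPM against 261, 286 and 282. HSPA1A, a stress-induced HSP70 gene, was at 337, 362 and 360 against 16.8, 16.4 and 15.7. No Kyse410 library overlapped a TE10 library for these genes, as for 77.6% of all genes. HSPA1A, HSPA1B and HSPA1L share near-identical sequence, so their separate values are uncertain. Of 44 tested chaperone genes, a list written after the values were seen, 39 were lower and 3 higher, with a median of -1.33. The 3 higher genes were FKBP5, HSF2 and HSF1 itself, which was 1.36-fold higher. GAANNTTCNNGAA was found in 5 of 41 promoters of this list (12.2%) and in 0.439% of all 27305. Of these genes HSPA8, CHORDC1 and SERPINH1 were lower in Kyse410, DNAJB6 did not pass the test, and HSPA6 was not among the genes tested.

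In the unfolded protein response list 16 of 24 were lower and 6 higher, with a median of -0.82. SDF2L1, a component of a chaperone complex there, was 5.59-fold and CRELD2 3.35-fold lower. ERN1, the sensor kinase IRE1, was at 7.06, 7.44 and 6.52 CPM in TE10 and at 46.4, 45.3 and 46 in Kyse410. The co-chaperones DNAJC3 and DNAJB9 were also among the 6 higher genes.

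ATF4 is the transcription factor of the integrated stress response, which cells use when amino acids are short. Its targets include ASNS, the enzyme that makes asparagine, whose promoter is shown because it holds a match to TGATGNAA, an amino acid response motif (RefSeq, GRCh38.p14, chr7:97872409-97872658, minus strand, match in capitals).
ASNS: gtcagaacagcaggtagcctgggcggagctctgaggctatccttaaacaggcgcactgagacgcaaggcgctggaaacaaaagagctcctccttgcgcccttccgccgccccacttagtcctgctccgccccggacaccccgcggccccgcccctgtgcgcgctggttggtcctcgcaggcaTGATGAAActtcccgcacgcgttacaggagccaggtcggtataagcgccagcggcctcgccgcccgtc
ASNS was at 10.9, 12.5 and 10.8 CPM in TE10 and at 110, 109 and 104 in Kyse410 (log2 3.24 ± 0.0782, edgeR adjusted p = 3.80e-61). NUPR1, a stress-induced nuclear protein, was at 1.28, 1.18 and 0.631 against 88.9, 95 and 87.7 CPM. DDIT3, the CHOP factor of stress-induced death, was 8.43-fold higher, with 31.6% of its exon bases shared with a gene on the other strand, and CBS, of the transsulfuration pathway, 13.2-fold. ATF4 itself was 2.08-fold higher. Of 31 tested members 24 were higher and 5 lower, with a median of 1.18, and the lower ones included the proline enzyme ALDH18A1 (1.72-fold) and the serine enzymes SHMT1, SHMT2 and PSPH. TGATGNAA was found in 4 of 25 promoters of the list (16%) and in 3.19% of all.

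NRF2, encoded by NFE2L2, activates genes against oxidants, and KEAP1 marks it for destruction. NFE2L2 was at 95.4, 94 and 95 CPM in TE10 and 214, 215 and 215 in Kyse410, and KEAP1 was 2.59-fold lower. The list of targets used here also holds NFE2L2 and KEAP1. Of its 36 tested genes, 27 were lower in Kyse410 and 7 higher, with a median of -0.98. The sum of the list went the other way, at 8630 to 8880 CPM in Kyse410 and 7830 to 7880 in TE10. FTH1, among the 7 higher, was at 4650 ± 134 CPM in Kyse410 and 2660 ± 31 in TE10. For FTH1, 62.4% of the exon bases overlap a gene on the other strand. AKR1C1, an aldo-keto reductase with near-identical relatives, was at 12.1, 16.9 and 14.1 CPM in TE10 and 0.243, 0.509 and 0.664 in Kyse410. PGD, of the pentose phosphate pathway, was at 199, 215 and 207 against 33.3, 29.9 and 33.5 CPM, and GCLM, of glutathione synthesis, was 5.91-fold lower. Among the 7 higher, ABCC3, an efflux pump, was at 77, 69.1 and 73.3 against 519, 493 and 528 CPM.

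Of 32 cholesterol and lipid genes 22 were lower in Kyse410 and 8 higher, with a median of -1.26. FDFT1, squalene synthase, was at 363, 360 and 360 CPM in TE10 and at 41.6, 42.6 and 44.5 in Kyse410 (log2 -3.07 ± 0.0433, edgeR adjusted p = 4.02e-82). SQLE, squalene epoxidase, which acts on its product, was at 201, 194 and 194 against 26.2, 28.7 and 28 CPM. SREBF1, a transcription factor of lipid synthesis genes, was 1.75-fold higher, and ABCG1, which exports cholesterol, was at 5.01, 3.54 and 5.47 against 89.9, 92.8 and 96.4 CPM. FDFT1 and SQLE thus stood opposite to the exporter, and the synthesis enzyme CYP51A1 did not pass the test.

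In the list of glycolysis and hypoxia genes 26 of 38 were lower in Kyse410 and 9 higher, with a median of -0.36. The hexokinase HK2 and the glucose transporter SLC2A1 were among those higher. PKM, pyruvate kinase, was at 3260, 3240 and 3210 CPM in TE10 and at 927, 890 and 900 in Kyse410, and GAPDH 3.2-fold lower. The hypoxia-responsive members VEGFA and ANGPTL4 were 4.39-fold higher and 5.79-fold lower. All 13 mitochondrially encoded transcripts were lower, by edgeR and by DESeq2, with a median of -1.85, and MT-CO3, a subunit of cytochrome c oxidase, was at 5300, 5320 and 5240 against 749, 765 and 774 CPM. Nuclear genes of the respiratory chain were lower in 24 of 36 and higher in 3, with a smaller median of -0.52.

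Genes of DNA replication were lower in Kyse410 in 36 of 39 and higher in 0, with a median of -0.75. An unadjusted p in edgeR gave the same counts, and DESeq2 called 35 lower and 0 higher. ORC1, which marks replication origins, was at 79.8, 78.6 and 79.9 CPM in TE10 and 17.2, 16.3 and 15.9 in Kyse410, and the helicase subunit MCM4 was 3.04-fold lower. In the list of G2 phase and mitosis 34 of 36 were lower, with a median of -1.01. CCNB1, the mitotic cyclin, was at 273, 257 and 271 CPM against 48.4, 52.4 and 55, and the proliferation marker MKI67 was at 711 ± 10.1 in TE10 against 342 ± 5.44 in Kyse410. CDC25B, a phosphatase that opens mitosis, was the member that was higher (1.56-fold), and CDC25C did not pass the test. In bulk libraries fewer cells in a phase and less RNA per cell cannot be told apart.

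In the list of G1 cyclins and inhibitors of cyclin-dependent kinases 13 of 23 were higher in Kyse410 and 8 lower, with a median of 0.43. CDKN1A, the p21 inhibitor, was at 82.5, 91 and 95.9 CPM in TE10 and at 368, 364 and 370 in Kyse410 (log2 2.03 ± 0.0397, edgeR adjusted p = 3.39e-69). CDKN2B, the p15 inhibitor, was at 7.19, 8.27 and 7.15 against 60.7, 61.6 and 56.9 CPM. Its neighbour CDKN2A, which encodes p16 and ARF, was at 23, 23.5 and 24.5 CPM in TE10 and 87, 87.9 and 89.4 in Kyse410, so both lines held transcripts of this often deleted gene. The inhibitor CDKN2C (p18) went the other way, at 53.8, 49.1 and 55.2 CPM in TE10 against 25.1, 27 and 26.4 in Kyse410. MTAP, next to CDKN2A, was 2.05-fold lower. The cyclin CCNE2 was 5.64-fold lower (37.1% of its exon bases overlap a gene on the other strand), and MYC 2.5-fold higher. BBC3, the death-promoting PUMA protein, was 10.4-fold higher.

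Ribosome biogenesis genes, many of which are known targets of MYC, were lower in 33 of 37 and higher in 2, with a median of -0.85. NPM1, the nucleolar chaperone nucleophosmin, was at 1540, 1540 and 1550 CPM in TE10 and 367, 373 and 364 in Kyse410. Ribosomal protein genes were lower in 54 of 70 and higher in 10, with a median of -0.33, from RPL6 at 2.5-fold lower to RPL28 at 1.29-fold higher.

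**Figure D3:**
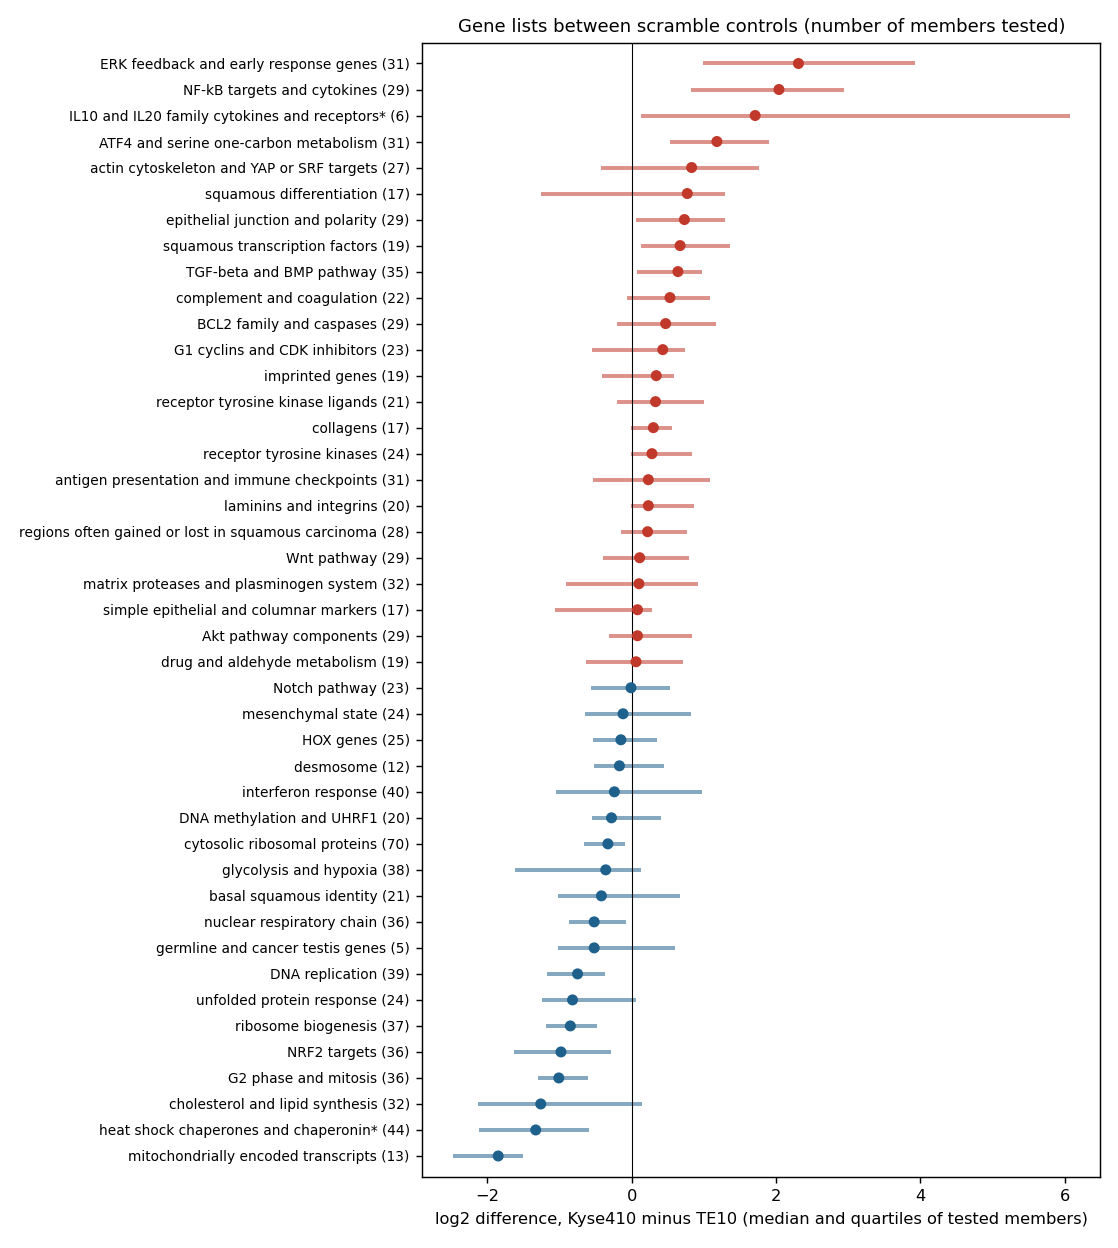
Median (point) and quartiles (bar) of the log2 difference, Kyse410 minus TE10, over the tested members of the gene lists shown, each with at least 5 tested, the number in parentheses; an asterisk marks the 2 lists written after the values were seen. Early response genes lie highest at 2.31 and mitochondrially encoded transcripts lowest at -1.85, with the median of all genes at 0.002.

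UHRF1, the gene silenced elsewhere in the study, reads methylated DNA and recruits the methyltransferase DNMT1 at replication. In the scramble controls it was at 172, 178 and 183 CPM in TE10 and at 101, 101 and 95.3 in Kyse410 (log2 -0.84 ± 0.0433, edgeR adjusted p = 5.59e-34). With the shRNA it was at 86.1 ± 3.48 CPM in TE10 and 42.8 ± 0.922 in Kyse410, below the scramble controls of its line. DNMT1 was 1.33-fold lower, DNMT3A 2.47-fold higher, and EHMT2, a histone H3 lysine methyltransferase, was at 176, 159 and 166 against 45.5, 43.5 and 40.7 CPM. Of 46 germline and cancer testis genes 5 had enough reads to be tested, and the antigen MAGEA1 was detected in both lines, at 30.2 ± 0.342 CPM in TE10 and 14.9 ± 0.887 in Kyse410. In the HOX genes, transcription factors of body position, 7 of 25 were higher and 10 lower (68% called, against 76.6% of all genes). HOXB9 was at 12.6 ± 1.37 CPM in Kyse410 against 2.45 ± 0.538 in TE10. Drug and aldehyde metabolism genes were divided, with 8 of 19 higher and 8 lower, among them the cytochrome CYP1B1 at 24 ± 1.97 CPM in Kyse410 against 104 ± 1.8 in TE10 and CYP26B1, which breaks down retinoic acid, 2.16-fold higher. The imprinted RNA H19 was abundant in both lines, at 6820, 6800 and 6780 CPM in TE10 and 9500, 9350 and 9200 in Kyse410.

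Few genes were present in 1 line and absent from the other. With at least 5 CPM in a line and at most 3 reads over the 3 libraries of the other, there were 3 genes in Kyse410 and 0 in TE10, and with no read at all in the other line there were 0 and 0. Lowering the level to 1 CPM gave 80 and 22 genes. HLF, a circadian PAR bZIP transcription factor, had 1062 reads in Kyse410 and 3 in TE10, a ratio of 279 per library size (95% counting interval 95.3 to 1360), with 33.2, 31.9 and 32.3 CPM in the Kyse410 libraries. KRTAP5-1, a hair keratin-associated protein, had 375 reads against 1, a ratio of 296 (52.8 to 11700), and KRTAP5-2 had 292 against 1. The KRTAP5 genes are near-identical to each other, and 93.6% of the exon bases of KRTAP5-2 overlap a gene on the other strand. Read counts carry no genotype here, and the identity of the lines against reference profiles was not tested.

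Differences were also set along the order of genes. Only tested protein-coding genes were used for this, without those of the mitochondrial and Y chromosomes. Medians over 21 such neighbouring genes lay between -0.53 and 0.59 for 95% of 11586 runs. The highest median was 1.5, in the run from ODAD1 to HSD17B14, in which 13 genes were higher and 4 lower. DBP, another PAR bZIP factor, was at 7.19, 9.81 and 6.52 CPM in TE10 and 99.4, 104 and 96.4 in Kyse410, and CA11, which lies beside it, was 17.6-fold higher. The run from PDCD6 to IRX2-DT had a median of 1.18, with the potassium chloride transporter SLC12A7 at 903 ± 28.1 against 327 ± 12.3 CPM. The run from MIIP to EPHA2 (1.09) holds CASP9, an initiator caspase that was 5.69-fold higher, and the run from CNFN to PLAUR (1.08) holds the near-identical pregnancy-specific glycoprotein genes, with PSG1 at 7.94 ± 0.563 against 0.305 ± 0.172 CPM. The lowest median was -1.06, from PLEKHG6 to TPI1, where 18 genes were lower and 2 higher, among them TPI1, a glycolytic enzyme at 217 ± 8.05 against 762 ± 20 CPM, GAPDH and the deubiquitinase USP5, 4.79-fold lower. The runs from TMPO to HSP90B1 (-0.8), OGT to TAF9B (-0.79) and DNER to EIF4E2 (-0.77) followed. In the libraries with the UHRF1 shRNA, the same runs had medians of 0.65, 0.14, 0.57 and 1.13 for the 4 highest in the order given, and of -0.79, -0.56, -0.62 and -0.46 for the 4 lowest, so the run from PDCD6 to IRX2-DT was near 0 there. With 41 neighbours the highest and lowest medians were 1.12 and -0.65. Copy number was not measured.

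**Figure D4:**
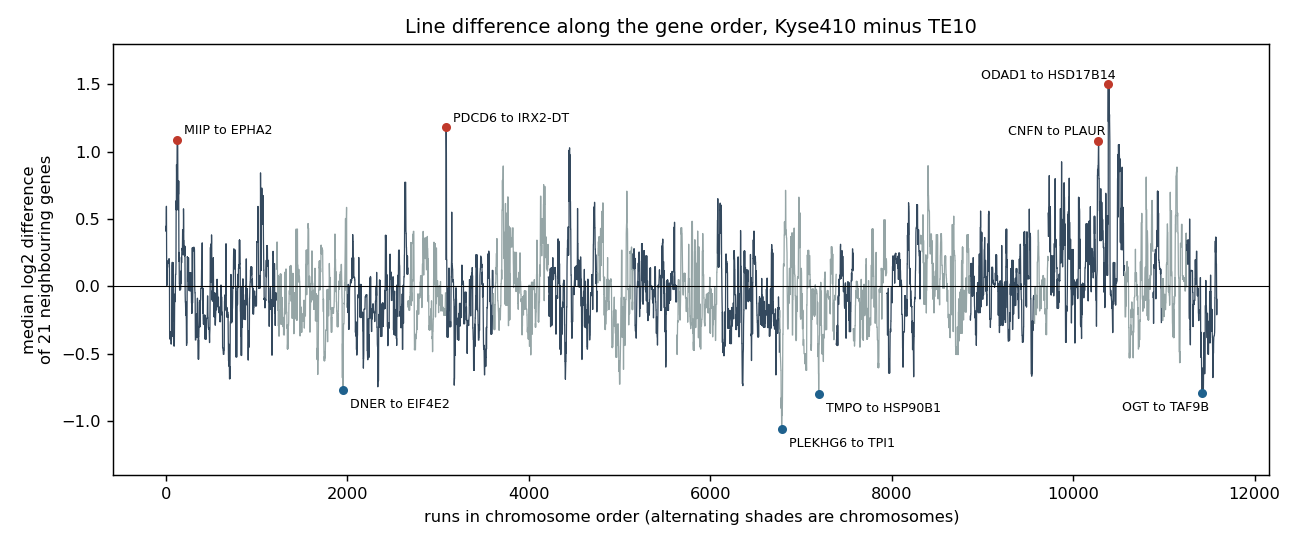
Median log2 difference, Kyse410 minus TE10, of each run of 21 neighbouring tested protein-coding genes (y axis), with runs in chromosome order (x axis) and alternating shades for chromosomes. The 4 highest and 4 lowest runs that do not overlap are marked by their end genes, from 1.5 for ODAD1 to HSD17B14 down to -1.06 for PLEKHG6 to TPI1.

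The line difference was then measured in the 6 libraries with the UHRF1 shRNA, which share no library with the scramble controls. There 11552 of 15231 genes (75.8%) differed between Kyse410 and TE10. Of 14882 genes tested in both, 9052 were called in the same direction, 78.7% of the calls among scramble controls and 79.9% of those with the shRNA, and 582 were called in opposite directions. Of 4014 genes that differed at least 2-fold among scramble controls, 3657 (91.1%) were called in the same direction with the shRNA and 39 in the opposite one. All 23 genes named for the largest scramble differences were called in the same direction. The median of the list of early response genes was 1.95 with the shRNA, that of NF-kB targets 1.68, of ATF4 targets 1.81, of chaperones -1.46, of NRF2 targets -1.43, of cholesterol genes -0.52 and of mitochondrial transcripts -1.27. The mesenchymal list did not keep its sign, with a median of 0.69 with the shRNA (14 higher, 6 lower) against -0.12, and glycolysis and hypoxia genes were divided there (14 higher, 15 lower, median -0.06).

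Some differences were not the same size in both sets. A test of the interaction, the line difference with the shRNA minus that with the scramble, called 6336 of 16060 genes (39.5%), and 15 of the 23. HLF was at 5.13 ± 0.489 CPM in Kyse410 with the shRNA, where its line difference was 3.53 on the log2 scale against 7.97 among scramble controls. KRT5 had a line difference of -2.55 with the shRNA against -5.83. HSPA8 differed by -5.56 with the shRNA and -5.74 without. TP63, which did not pass the test among scramble controls, differed by 0.79 with the shRNA, an interaction of 0.83 (edgeR adjusted p = 1.29e-15). VIM differed by -1.34 with the shRNA and CDH1 by 0.73, both in the direction of the scramble controls. ECM1 was lower in Kyse410 among scramble controls (-1.26) and higher with the shRNA (0.41, edgeR adjusted p = 7.50e-05). The line differences of IFI16, CD59 and KRT16 were -1.62, -1.03 and -2.01 among scramble controls and -0.02, -0.07 and -0.22 with the shRNA, where none of them passed the test.

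**Figure D5:**
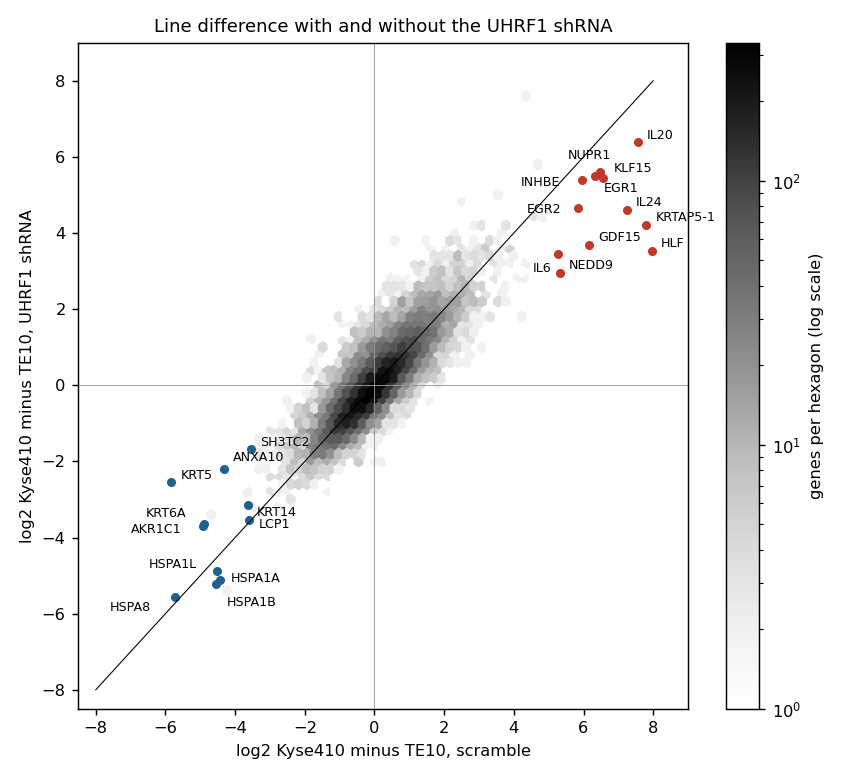
Log2 line difference, Kyse410 minus TE10, among scramble controls (x axis) and among UHRF1 shRNA libraries (y axis) for the 14882 genes tested in both, as hexagons shaded by the number of genes, with the 23 genes named for the largest scramble differences as colored points and the line of equal values. All 23 points keep their side of 0, and HLF (7.97 and 3.53) and KRT5 (-5.83 and -2.55) lie far from the line.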

How the data were processed

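The authors deposited raw counts, whole numbers of reads per gene with 1 file per library, made with bcl2fastq 2.19, HISAT2 2.1.0, HTSeq 0.9.1 and the build GRCh37.p13, per the submitters' processing notes, which also name DESeq2. Neither the annotation release nor how HTSeq treated strand is given in the sources used here, so reads of overlapping genes on opposite strands cannot be told apart. HTSeq's counters of unassigned reads (42.88 to 44.53% of reads to no feature) were left out. Of 57820 identifiers 51443 had a symbol, holding 99.03% of gene reads, and UHRF1 was named by hand from ENSG00000034063. Exon lengths and neighbours came from GENCODE v29, which is of another build, so only promoters carry coordinates.

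The 6 scramble libraries were fitted with edgeR 4.0.16 in R 4.3.3 (filterByExpr, TMM scaling, robust quasi-likelihood, 4 residual degrees of freedom), with Benjamini-Hochberg adjustment over the 15381 genes tested and a threshold of 0.05. SE is the standard error of the log2 difference. CPM is a gene's read count relative to the TMM-scaled library total, as edgeR's cpm function gives it, ± SD of 3 libraries. The shRNA libraries and the interaction were fitted likewise. Ratios of reads have exact 95% intervals that cover counting error only, and 3 reads over a group was taken as the floor. Depth was 8053970 to 9809414 gene reads in TE10 and 9512502 to 12005229 in Kyse410. Of the steps, only the edgeR fit was tried on simulated counts, in which far fewer genes differed than were called here. It called 52% of 1.25-fold and 96% of 2-fold changes, and 7% of its calls were false at the threshold of 0.05. DESeq2 1.42.0, other scalings, filters and leaving out each library were alternatives.

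The members and the 46 gene lists were chosen with earlier results of these data known, and 2 lists (heat shock, IL10 and IL20 family) after these values were seen. The text names the largest called differences, 12 above and 11 below 0, among protein-coding genes with at least 5 CPM on average and no overlap, up to 4 called members each way per list with at least 5 CPM in the higher line, a fixed set of genes, genes found in 1 line only and ends of runs. FOS, JUN, IL1A, CXCL8, KEAP1, GAPDH, HSP90AA1, ATF4, MYC, HSF1, IL20RB, KRT81, KRT86 and H19 were added after their values were seen. Not all genes and lists that these rules name are reported here. Replicate numbers did not pair libraries of the lines.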

Additional observations from a re-analysis of the deposited data

Results flagged for a closer look

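The line difference of 15 of the 23 genes named for the largest scramble differences was not the same with the UHRF1 shRNA, by edgeR's test of the interaction (line difference with the shRNA minus that with the scramble, log2 scale, adjusted p under 0.05 over 16060 genes). These genes were chosen for their size among scramble controls, so a smaller value in other libraries is partly built into the choice, and the interaction uses those same scramble libraries.

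Among genes higher in Kyse410, the interaction was -4.44 for HLF, -3.56 for KRTAP5-1, -2.62 for IL24, -2.48 for GDF15, -2.35 for NEDD9, -1.8 for IL6 and -0.82 for EGR1. Among genes lower in Kyse410 it was 3.29 for KRT5, 2.12 for ANXA10, 1.87 for SH3TC2, 1.24 for KRT6A, 1.23 for AKR1C1 and 0.18 for HSPA8. These 13 line differences were smaller with the shRNA. The line differences of HSPA1B (-0.69) and HSPA1A (-0.68) were larger with it, and their reads cannot be separated with certainty.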

How the results depend on the processing

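Across the alternatives 9658 to 12305 genes were called, against 11785 (protein-coding genes only 9658 of 12059 tested, a 5 CPM minimum 10278 of 12457, DESeq2 10888, all 12 libraries in 1 fit 11844, without mitochondrial genes 11751, no filter 12305 of 28148 tested), and leaving out 1 library gave 11454 to 11605 calls, 5717 to 5814 higher and 5737 to 5791 lower. At 2-fold those fits gave 4420 to 4514, 2479 to 2565 and 1923 to 1969, and among shRNA libraries 11170 to 11401, 5638 to 5731 and 5532 to 5695. Of the calls tested in both fits, 92.3 to 99.7% stood in the same direction under each alternative; of all 11785, 10113 did so at the 5 CPM minimum and 9445 among protein-coding genes, where fewer genes were tested. With a replicate block 11652 genes were called, and correlations of same-numbered libraries were -0.001, -0.006 and 0.013. Scaling by library totals moved the median of all genes to 0.088 and the share of calls higher in Kyse410 from 50 to 54.8%. With no read allowed in the other line, genes found in Kyse410 only went from 3 to 0. With 41 neighbours the highest and lowest runs were 1.12 and -0.65. The median of the Wnt list was -0.098 and that of drug and aldehyde genes -0.135 at a 5 CPM minimum, and the latter -0.054 to 0.083 when each library was left out, lowest without Kyse410 replicate 2; the medians of the simple epithelial, Notch and HOX lists also crossed 0. Signs turned for AKT2 (0.024, library totals), TP63 (0.014 by upper quartile, 0.054 by library totals, 0.005 among protein-coding genes, -0.076 to 0.02 with each library left out, highest without TE10 replicate 1), MUC5AC (-0.101 to 0.205, below 0 without Kyse410 replicate 3 and, at -0.034, TE10 replicate 1) and TFF1 (-0.081 to 0.151, lowest without TE10 replicate 3), none of which passed the test; the cause was not tested. Of 382 named genes 364 kept call and direction in every alternative.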
